A study of Homo sapiens with 16 samples.

Results

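p65 binding was compared between mock cells of SW480 and mock cells of HT29, both human colorectal cancer cell lines, over 200-bp bins of chromosomes 1 to 22 and X. Of 15155232 bins, 44379 were compared. They were the bins whose mean signal over the 6 mock p65 ChIP-Seq libraries was at least 1 and whose megabase had a usable input level in both lines. The 2987 other bins with such a mean lay in megabases without a usable level. Among the kept bins, 14093 had a mean between 1 and 1.1, of which 324 were bound in a line, and 27756 bins with a mean between 0.9 and 1 were left out. Each line gave 3 ChIP libraries. SW480 and HT29 cells carried either an empty construct (mock) or a transduced ERβ and were grown with blasticidin, and the ERβ cells gave 1 of the inputs of each line and the ChIP libraries read at the end. All cells had received TNFα at 30 ng/ml for 30 min, and chromatin was fixed with DSG for 45 min and with 1% formaldehyde for 10 min. Every group therefore shows p65 under TNFα in cells that carry a construct, and cells without TNFα were not analysed here. Each line had 2 input libraries, chromatin sequenced without enrichment, 1 of mock and 1 of ERβ cells. The ERβ inputs come from another set of experiments. GEO's labels list the antibody and TNFα for the inputs as well.

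p65, encoded by RELA, is the transactivating subunit of most NFκB dimers. In resting cells it is held in the cytoplasm by IκB proteins. TNFα activates the IκB kinase, IκB is degraded, and p65 enters the nucleus within minutes, where it binds κB sites at promoters and enhancers of inflammatory, anti-apoptotic and feedback genes. Which κB sites are open to it differs between cell types, and in cancer cells the number of DNA copies of a region also sets how much of it is recovered in a ChIP. Signals were therefore divided by the input level of their megabase, on a scale where 1 is the median megabase of the line. All signals below are on this divided scale unless stated otherwise. They are coverage by fragments of 100 bp, after scaling of each library to the same total of tags. The tracks hold no tag counts, so the number of tags behind a value cannot be read from them.

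The sequences of the loci that the comparison turns on are shown first, from GRCh38. In each bin, capitals mark matches to the κB consensus of 10 bases, to its shorter core GGAANNNCC, and to the RUNX motif TGTGGT or its complement ACCACA. In SW480, the bins with the largest excess over HT29 included those nearest to TNFSF10, PSTPIP2 and HS6ST1, which are shown for their RUNX matches. Of the 12 SW480 loci with the largest excess 6 held a RUNX match, and the others held none.
TNFSF10, chr3:172592201-172592400, plus strand: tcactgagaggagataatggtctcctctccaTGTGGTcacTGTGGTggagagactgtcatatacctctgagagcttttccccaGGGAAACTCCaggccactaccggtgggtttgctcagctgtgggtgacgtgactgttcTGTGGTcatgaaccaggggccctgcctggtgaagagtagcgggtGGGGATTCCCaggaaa
PSTPIP2, chr18:46052201-46052400, plus strand: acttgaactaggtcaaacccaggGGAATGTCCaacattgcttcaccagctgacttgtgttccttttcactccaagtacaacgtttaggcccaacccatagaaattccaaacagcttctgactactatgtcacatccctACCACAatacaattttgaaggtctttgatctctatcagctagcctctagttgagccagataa
HS6ST1, chr2:128520801-128521000, plus strand: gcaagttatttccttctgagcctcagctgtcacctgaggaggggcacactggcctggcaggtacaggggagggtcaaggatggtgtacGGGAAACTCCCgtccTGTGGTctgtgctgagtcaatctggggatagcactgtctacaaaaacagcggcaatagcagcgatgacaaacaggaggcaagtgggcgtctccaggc
In HT29, the bins with the largest excess included the one nearest to BACH1, which held 1 κB consensus match and no RUNX match. Of the 12 HT29 loci with the largest excess 2 held a RUNX match, those nearest to FBXW10 and CREB3L3.
BACH1, chr21:29168801-29169000, plus strand: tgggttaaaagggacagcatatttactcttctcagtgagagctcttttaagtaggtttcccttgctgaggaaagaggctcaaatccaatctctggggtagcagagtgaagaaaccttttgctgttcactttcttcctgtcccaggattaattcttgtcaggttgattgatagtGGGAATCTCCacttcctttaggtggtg
A bin at the promoter of ATG16L2 was bound in both lines, and is shown as a site that did not pass the test.
ATG16L2, chr11:72814201-72814400, plus strand: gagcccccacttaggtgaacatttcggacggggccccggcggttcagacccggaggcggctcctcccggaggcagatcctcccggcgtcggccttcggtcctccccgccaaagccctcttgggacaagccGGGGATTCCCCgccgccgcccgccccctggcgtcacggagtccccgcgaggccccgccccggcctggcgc

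1 library stood apart. At the 1656 bins bound in both lines, the median signal was 6.16 in HT29 mock replicate 1, 3.08 in replicate 2 and 3.29 in replicate 3. The SW480 mock libraries had 2.63, 3.10 and 3.20. HT29 replicate 1 was far above the other 5 libraries, which lay close together. The counts of called bins below are also given with this library left out of the test. The counts of bound bins, of loci and of all genes include it. The cell line labels of the ChIP libraries were checked against the DNA of the inputs with the same labels. Line names exchanged in both would not be seen this way. Over 2865 megabases the log2 level of each mock ChIP library correlated with the inputs of its own line at r = 0.97 to 1.00 and with those of the other line at 0.52 to 0.63. These r are a description over megabases that share copy number and base composition.

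Most kept bins were not bound by p65. A bin was called bound in a line where the mean ChIP signal was at least 4 times the line's input in the bin or its megabase level, whichever was larger. By this limit 7499 bins were bound in HT29, 2304 in SW480, 1656 in both and 8147 in at least 1 line. These counts include HT29 replicate 1 and were not repeated without it. The other 36232 bins, or 81.6%, were bound in neither line. Of these, 63.0% lay in a megabase with an input level of at least 1.5 in 1 of the lines, against 17.1% of the bound bins. Chromosome 7 held 6877 kept bins, of which 6454 were bound in neither line, and chromosomes 8, 12 and 11 held 5062, 4388 and 3522. In SW480 the 4 megabases from 45000001 to 49000000 of chromosome 7 had a median level of 3.05, against 1.41 in HT29, and gave 4388 kept bins. The 6 megabases from 22000001 to 28000000 of chromosome 12 had 3.07 in SW480 and 1.39 in HT29. HT29 had its highest levels on distal chromosome 8, where a run of 14 megabases had a median of 3.20 against 0.994 in SW480.

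Division by the input level made these differences smaller. Over the bins bound in neither line, the correlation between the log2 ratio of input levels and the log2 difference in p65 signal was 0.70 before division and 0.05 after it, a description over 36232 bins that share the 6 libraries. In megabases where the level was more than 2 times higher in SW480, the median difference of these bins went from 0.72 to 0.09, and where it was more than 2 times higher in HT29 it went from -0.86 to -0.08. All differences are given as SW480 minus HT29 on the scale log2(signal + 1), which understates the change of low bins. Without division, 22529 bins had an adjusted p under 0.05 (limma), of which 17730 were bound in neither line, and with it 9996 had, of which 5681 were bound in neither line.

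**Figure D1:**
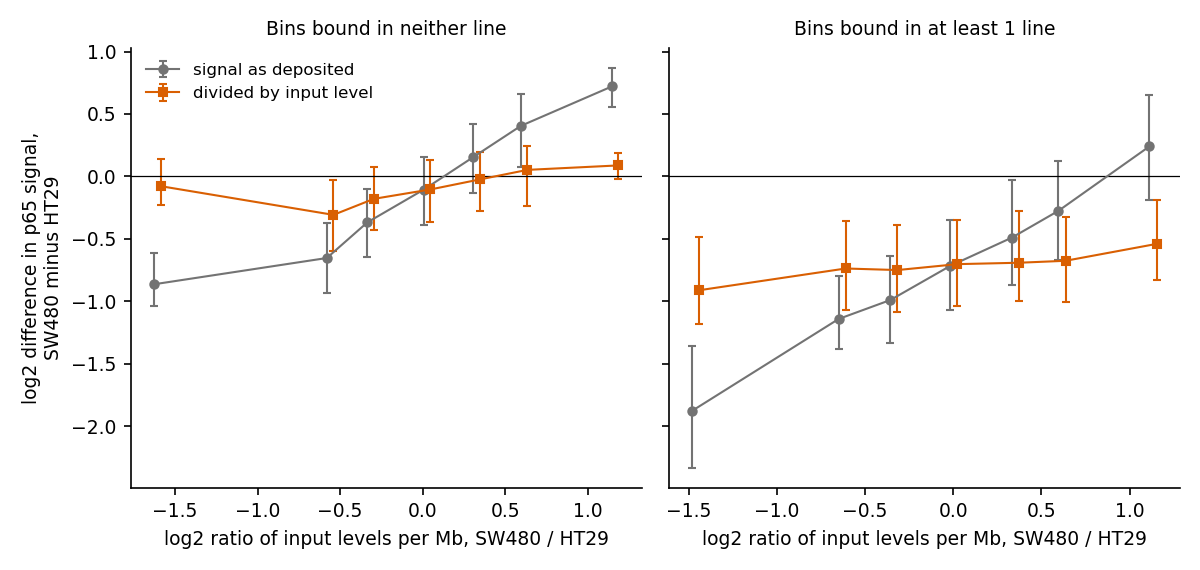
Median log2 difference in p65 signal (SW480 mock minus HT29 mock, y axis) in classes of bins by the log2 ratio of the 2 lines' input levels per megabase (x axis), for bins bound in neither line (left) and in at least 1 line (right). Bars span the middle 50% of bins. Grey circles are the deposited signal, which follows the input ratio, and orange squares are the divided signal, which stays between -0.31 and 0.09 on the left and between -0.91 and -0.54 on the right.

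After division, p65 signal was higher in HT29 at 2198 bins and higher in SW480 at 206 bins. These are bins with an adjusted p under 0.05 (limma, Benjamini-Hochberg over all 44379 bins), a log2 difference of at least 1, and binding in the higher line. They make 4.95% and 0.464% of the bins tested. Of them, 113 of the HT29 bins and 34 of the SW480 bins were bound in the other line as well. Every bin with a difference of at least 1 also passed the adjusted p, so the size limit and the binding limit set these counts. All 206 SW480 bins and 2193 of the 2198 HT29 bins had libraries that did not overlap between the lines. Over all kept bins, the 3 HT29 libraries lay above the 3 SW480 libraries at 24.7% and below them at 13.7%. The median difference was -0.07 over all kept bins and -0.70 over the 8147 bound bins. The first was -0.01 without HT29 replicate 1 and -0.33 with a minimum mean signal of 2, so it moved with the choice of bins and libraries.

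The number of HT29 bins depended on its replicate 1. With that library left out of the test, 1107 bins were higher in HT29 and 270 in SW480. In this and the other fits without 1 library, the kept bins and the binding limit still rested on all 6 libraries. With the libraries scaled to the same median over bins bound in both lines, 1153 were higher in HT29 and 381 in SW480, and HT29 then held 75.2% of the called bins, against 91.4% without this scaling. With quantile normalisation the counts were 1332 and 391, or 77.3% in HT29. Under both scalings the binding limit still used the unscaled signal, so the strength of the libraries still entered the counts through it. This scaling to the same median moved the median of all kept bins from -0.07 to 0.10. Calls kept without each of the 6 libraries in turn and under both scalings numbered 1006 in HT29 and 144 in SW480. Other settings, not part of these counts, kept fewer. With the input of the bin subtracted 721 HT29 and 108 SW480 calls were kept. With 2 in place of 1 added to the signal, 788 and 82 were kept.

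The mean log2 signal per library over all kept bins was 1.09 ± 0.17 (SD, n = 3) in HT29 and 0.95 ± 0.03 (SD, n = 3) in SW480, a difference of -0.15. Over the 8147 bound bins the means were 1.84 ± 0.41 and 1.2 ± 0.09, a difference of -0.64. These means are descriptions with no test, since both sets of bins were chosen by the signal of the same libraries. Of the bound bins 5843 were bound in HT29 alone, against 648 in SW480 alone. Over the 1656 bins bound in both lines the means were 2.34 ± 0.44 and 2.06 ± 0.10 and the lines overlapped.

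Called bins no more than 400 bp apart were joined, which gave 166 loci higher in SW480 and 1436 higher in HT29. A further 1040 loci were bound in both lines and not called. Around the best bin of the SW480 loci, the mean signal at the centre was 3.90, 4.36 and 4.66 in the SW480 libraries and 1.34, 0.913 and 0.979 in the HT29 libraries. Around the best bin of the HT29 loci it was 5.85, 2.73 and 2.90 in HT29 and 0.640, 0.765 and 0.824 in SW480. The signal of the other line was low but above its own flanks at both sets, where the mean beyond 1.5 kb was 0.337 to 0.384 in HT29 and 0.361 to 0.373 in SW480. At loci bound in both lines the centres reached 7.02, 3.56 and 3.76 in HT29 and 3.53, 3.99 and 4.0 in SW480, and HT29 replicates 2 and 3 there lay within the range of the SW480 libraries. Since the loci were chosen by this signal, the profiles are a description.

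**Figure D2:**
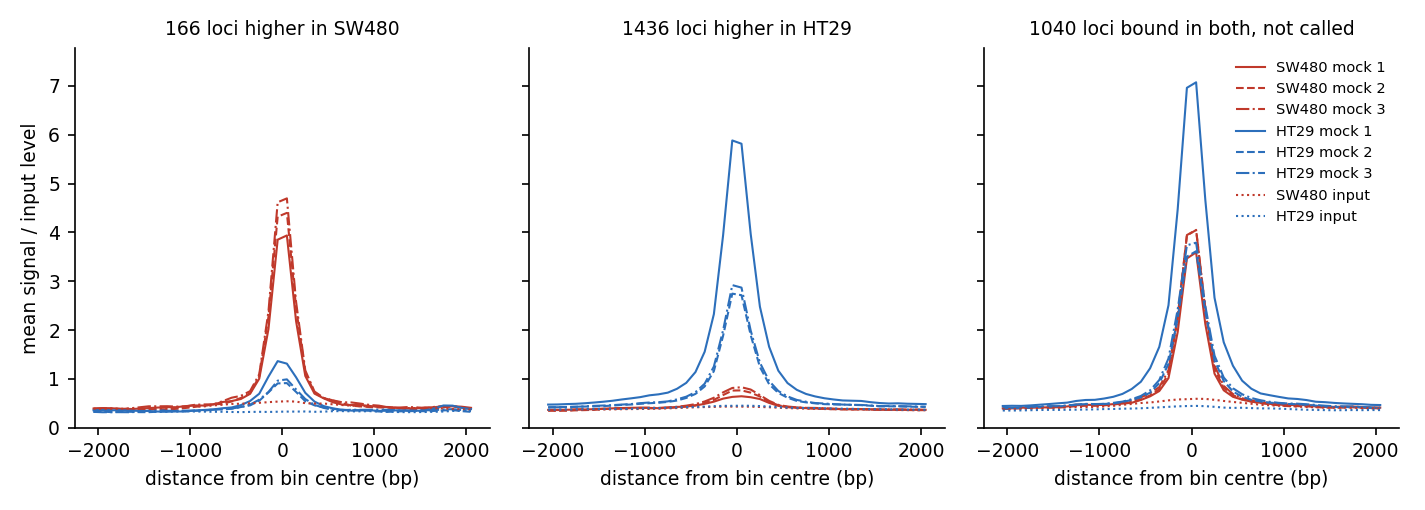
Mean divided p65 signal (y axis) against the distance in bp from the centre of the best bin (x axis), for 166 loci higher in SW480, 1436 loci higher in HT29 and 1040 loci bound in both lines and not called. Red lines are SW480 and blue lines HT29, with 1 line per mock library and dotted lines for the mock inputs. HT29 replicate 1 is the highest line in the middle and right panels, and replicates 2 and 3 run together at 2.73 and 2.90 in the middle panel.

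Among the 12 loci with the largest excess in SW480, the mean signal was 4.33 to 17.5 in SW480 and 0.374 to 1.78 in HT29. The strongest lay between genes on chromosome 3, 68825 bp upstream of TNFSF10, which encodes TRAIL, a death ligand of the TNF family. Its signal was 17.1, 20.6 and 14.9 in the SW480 libraries and 2.36, 1.71 and 1.27 in the HT29 libraries. The lowest SW480 value was far above the highest HT29 value, and the difference was 2.74 ± 0.28 (SE, limma, adjusted p = 1.9e-07). The input level was higher in HT29 there, at 1.52 against 1.14. A bound bin closer to the gene, 9730 bp from the TSS, had 1.22 ± 0.88 in SW480 and 1.54 ± 0.47 in HT29 (SD, n = 3 each) and was not called.

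Several of these SW480 loci lay in introns. In an intron of PSTPIP2, a membrane and cytoskeleton adaptor, signal was 7.72, 8.54 and 8.42 in SW480 and 1.62, 1.33 and 0.992 in HT29. In an intron of LYN, a tyrosine kinase of the Src family, it was 5.68, 7.15 and 7.53 against 1.21, 0.866 and 0.838. In an intron of DNMT3B, a de novo DNA methyltransferase, it was 6.32, 5.43 and 5.41 against 0.640, 0.674 and 0.884. The 3 libraries of a line lay close together at each of these loci and the lines were wide apart, with differences of 2.00, 1.98 and 1.96 (SE 0.29, 0.28 and 0.27, adjusted p = 3.8e-05, 3.8e-05 and 2.7e-05, limma). DNMT3B lies in a megabase with a level of 1.66 in both lines, so the division had the same effect on them.

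The promoter bin of ADAMTSL2, a secreted protein of the extracellular matrix, at chr9:133534601-133534800, had 5.32, 5.12 and 7.20 in SW480 and 0.566, 0.526 and 1.00 in HT29. It was the only promoter among the 12. The bin nearest to HS6ST1, a sulfotransferase of heparan sulfate, lay 202032 bp upstream of it and had 7.69, 4.46 and 5.97 against 0.745, 0.582 and 1.05. HMX1, a homeobox gene, was the nearest gene of 2 of the loci, at 24522 and 109722 bp from its TSS. The other loci were nearest to ERICH1, PLEKHA1, NAT8L and FBXO7. At ERICH1 the HT29 level was 0.34, so the HT29 values were raised most by the division there, and they still came to no more than 1.11 against at least 5.58 in SW480.

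Among the 12 loci with the largest excess in HT29, the mean signal was 7.49 to 18.4 in HT29 and 0.288 to 0.974 in SW480. The strongest pair were the bins nearest to FBXW10, an F-box protein gene, and to TRIM16, a tripartite motif protein gene. Signal near FBXW10 was 31.5, 10.2 and 13.6 in HT29 and 0.459, 0.179 and 0.246 in SW480, and near TRIM16 it was 18.0, 7.34 and 8.81 against 0.216, 0.307 and 0.545. The bins share an identical run of 68 bp within 1 kb, so the copy from which a tag came is uncertain even though only unique alignments were kept. The HT29 level was 0.58 at both.

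Of the 12 HT29 loci 3 lay at promoters, those of LCN2, IFNAR2 and STAP2. The promoter bin of LCN2, which encodes the siderophore-binding lipocalin 2, had 12.8, 6.39 and 6.80 in HT29 and 0.383, 0.653 and 0.351 in SW480. The bin 3157 bp upstream of KYNU, the kynureninase of tryptophan breakdown, had 21.7, 10.7 and 9.24 against 0.765, 0.465 and 1.42. The bin upstream of IFNAR2, a subunit of the type I interferon receptor, had 17.3, 8.35 and 9.20 against 0.761, 0.844 and 1.17. At all of them replicate 1 was the highest HT29 library and even the lowest HT29 library was over every SW480 library. The differences were -2.67, -2.92 and -2.65 (SE 0.30, 0.33 and 0.31, adjusted p = 1.2e-06, 1.1e-06 and 2.4e-06, limma), and without HT29 replicate 1 they were -2.38, -2.57 and -2.35.

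The loci nearest to BACH1, CREB3L3 and STAP2 had differences of -3.06, -2.67 and -3.03. Near BACH1, a leucine zipper repressor of heme and redox genes, signal was 20.5, 9.67 and 11.1 in HT29 and 0.675, 0.888 and 0.518 in SW480. The bin nearest to CREB3L3, a membrane-bound transcription factor of liver and intestine, had 25.3, 5.83 and 9.56 against 0.599, 0.854 and 1.47. The promoter bin of STAP2, an adaptor in kinase signalling, had 21.2, 10.5 and 11.2 against 0.542, 0.536 and 1.39. Replicate 1 was the highest of the HT29 libraries at each of these too. The rest were nearest to PTGS2, PFDN4, PSMA6 and PARP14, at 21467 to 101923 bp from a TSS. All 24 loci, 12 in each direction, had libraries that did not overlap between the lines, and all kept their call without each library in turn and under both scalings. Since they were picked for the largest differences in the same libraries, this is a description and no further test.

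**Figure D3:**
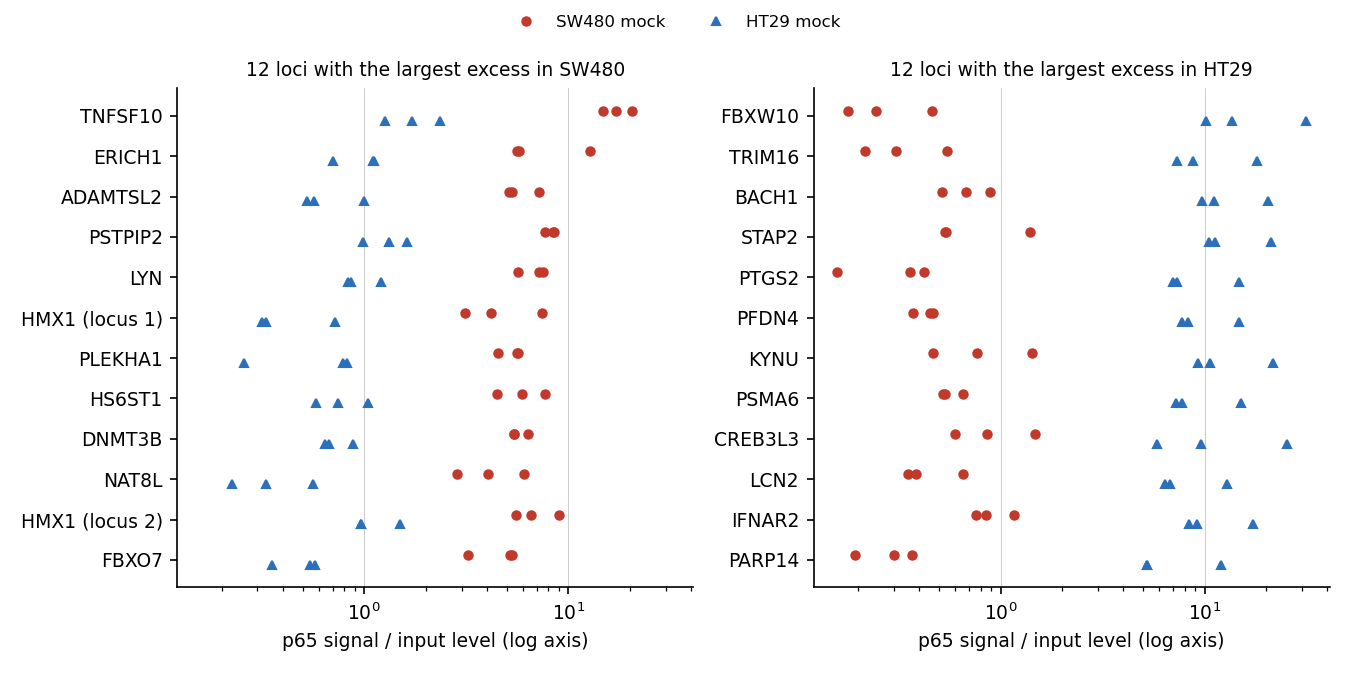
Divided p65 signal in the best bin (x axis, log scale) of the 12 loci with the largest excess in SW480 (left) and in HT29 (right), named by the nearest protein-coding TSS. Red circles are the 3 SW480 mock libraries and blue triangles the 3 HT29 mock libraries. The lines do not overlap at any locus, and the rightmost triangle on the right, from 12.1 to 31.5, is HT29 replicate 1.

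Loci of both directions lay farther from promoters than the loci bound in both lines. Promoters, taken as 1 kb upstream to 100 bp downstream of a TSS, held 6.02% of the SW480 loci (95% Clopper-Pearson interval 2.93% to 10.8%), 11.2% of the HT29 loci (9.63% to 13.0%) and 28.9% of the loci bound in both lines (26.2% to 31.8%). Introns held 50.6%, 41.1% and 34.7%. Of all kept bins 21.5% lay at promoters. The median distance to a TSS was 39118 bp in SW480, 18370 bp in HT29, 5548 bp at the loci bound in both and 12213 bp over all kept bins. The median GC content of the bins was 52%, 49% and 58%. These shares are descriptions over loci that come from the same 6 libraries, and the intervals cover counting error only.

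The RUNX motif differed between the loci of the 2 lines. A match to TGTGGT, the core bound by the RUNX family, was found in 39.8% of the best bins of SW480 loci (66 of 166, 95% Clopper-Pearson interval 32.3% to 47.6%). It was found in 10.5% of those of HT29 loci (151 of 1436, 8.98% to 12.2%), in 12.6% of those bound in both lines (131 of 1040, 10.6% to 14.8%) and in 13.4% of all 200-bp bins of the genome. Among the loci that kept their call without each library and under both scalings, the shares were 39.2% of 120 in SW480 and 11.7% of 693 in HT29. In the bin nearest to TNFSF10, there were 3 RUNX matches and 2 κB consensus matches. Motifs were searched on both strands as exact letters, so a match is not a site shown to be bound.

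The κB consensus was less frequent at SW480 loci than at those bound in both lines, while its core was more evenly spread. The 10-base consensus was in 44.6% of SW480 loci (36.9% to 52.5%), 54.3% of HT29 loci (51.7% to 56.9%) and 65.3% of those bound in both (62.3% to 68.2%), against 1.54% of all genomic bins and 8.99% of the kept bins bound in neither line. The core GGAANNNCC was in 69.3%, 65.4% and 77.7%, against 7.0% of genomic bins. Consensus and core overlap, and 10 of the 12 named SW480 loci and 11 of the 12 named HT29 loci held at least 1 of them. AP-1 (TGANTCA) was in 18.7%, 13.1% and 17.0%, against 6.17%.

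The other motifs searched were rarer. CDX (TTTATTG) was in 5.43% of HT29 loci, 3.01% of SW480 loci and 2.02% of those bound in both, and the GATA factor motif (AGATAAG) in 4.60%, 1.81% and 1.06%, with 6.78% and 2.84% of genomic bins. CEBP (TTGCNCAA) was in 4.04%, 1.20% and 2.60%. FOXA (TGTTTAC) was in 7.38%, 9.04% and 6.44%, with 3.09% of genomic bins, and TEAD (GGAATGT) in 5.22%, 8.43% and 5.48%. The intervals of SW480 and HT29 overlap for each of these. Between HT29 loci and those bound in both lines they were apart for CDX (4.32% to 6.73% against 1.25% to 3.07%). They were also apart for GATA (3.57% to 5.81% against 0.53% to 1.88%). HNF4 (CAAAGTCCA), ETS (CCGGAAGT), HNF1 and IRF were in no more than 3.08% of any of these sets of loci.

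**Figure D4:**
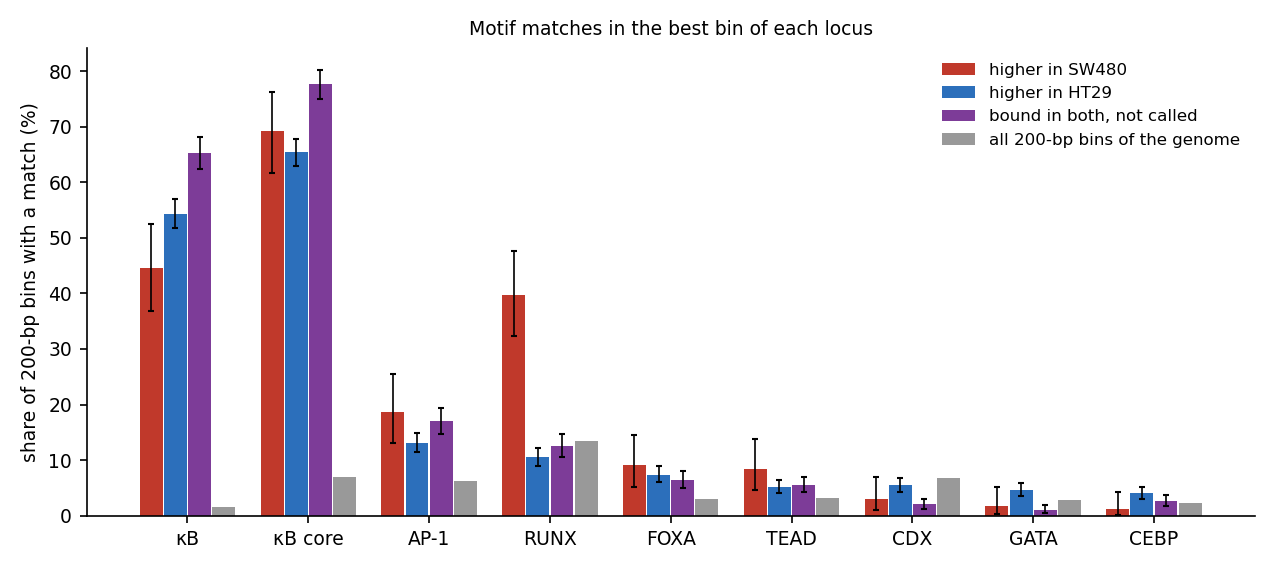
Share of 200-bp bins with at least 1 match to a motif (y axis, percent) for the best bins of SW480 loci (red), HT29 loci (blue) and loci bound in both lines (purple), and for all bins of the genome (grey). Error bars are 95% Clopper-Pearson intervals. RUNX is the motif at which the red bar, 39.8%, stands clear of the blue and purple bars, 10.5% and 12.6%.

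Genes of 8 lists were read at their strongest bound bin within 50 kb of a TSS. Of 162 listed genes 93 had such a bin, and 22 of them were higher in HT29 and 2 in SW480. This makes 23.7% and 2.15%, close to the 25.4% and 2.86% of all 2798 genes with a bound bin. The counts of each list below stand against these shares of all genes. The median difference of the 93 was -0.61, and that of the 2798 genes -0.64. Of the 22 HT29 calls, 12 were kept without each library in turn and under both scalings. The lines did not overlap at any of the 24 called genes. With the input of the bin subtracted 9 of the 22 kept their call, namely TRAF1, CXCL16, IL1B, TNFSF15, BIRC7, BCL2L1, ITGAV, DUSP16 and EHF. The other 13, described below, and CX3CL1 lost it there. With input levels per 100 kb, 3 of the 21 genes with a value lost it, namely CLDN3, CLDN4 and KRT18.

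The feedback genes of NFκB were mostly bound in both lines. Of 12 inhibitors and adaptors 11 were bound in both lines at this bin, against 801 of all 2798 genes, and 2 were higher in HT29 and none in SW480 (limma, with 4 at an adjusted and 5 at an unadjusted p under 0.05), with a median difference of -0.29. The 2 were adaptors of TNF receptors. TRAF1 had 8.27, 3.36 and 4.55 in HT29 and 0.660, 0.642 and 1.56 in SW480, and TRAF2 had 15.9, 8.30 and 9.10 against 4.53, 2.26 and 3.95. At the promoter of TNIP1, a partner of the deubiquitinase A20, values were 21.3, 13.1 and 12.9 in HT29 and 16.3, 16.8 and 10.6 in SW480, and the lines overlapped. Away from this bin, TNIP1 was the nearest gene of 4 loci higher in HT29, at -1.83 to -1.01. Of these, 2 kept their call without each library in turn and under both scalings. BCL3, a nuclear IκB protein, had 14.0, 15.3 and 13.5 in SW480 and 10.0, 5.76 and 6.02 in HT29 at a bin 2179 bp downstream of its TSS, a difference of 0.92 ± 0.23 (SE, adjusted p = 0.0043, limma) that stayed under the size limit. Without HT29 replicate 1 it was 1.15 and called higher in SW480, as it was under both scalings, at 1.30 and 1.11.

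All 5 genes of the Rel and NFκB subunits were bound in both lines, and none was called (limma, with 1 at an adjusted and 2 at an unadjusted p under 0.05), with a median difference of -0.13. The promoter bin of NFKB2 (p100) had 28.5, 15.2 and 17.5 in HT29 and 10.95, 13.8 and 13.0 in SW480, without overlap and with a difference of -0.61 ± 0.18 (SE, adjusted p = 0.017, limma). That of NFKB1 (p105) had 17.2, 8.62 and 8.86 against 6.69, 10.0 and 15.2, and overlapped. SW480 carried a level of 0.54 at NFKB1, and the difference was -0.11 with division and -0.92 without it.

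Of 18 chemokine and cytokine genes, 2 were higher in HT29 and 1 in SW480, and the median difference was -0.64. IL1B, the gene of interleukin 1β, had 6.69, 2.74 and 4.11 in HT29 and 0.383, 1.01 and 0.262 in SW480 at a bin 24334 bp from its TSS. CXCL16 was likewise higher in HT29, by -1.47 ± 0.26 (SE, adjusted p = 0.00022, limma), though without copy number division its difference was -0.92 and was not called. CX3CL1, the gene of fractalkine, had 3.99, 4.37 and 5.46 in SW480 and 2.55, 1.73 and 1.07 in HT29, a difference of 1.04 ± 0.30 (SE, adjusted p = 0.013, limma) whose call was lost without SW480 replicate 2 or 3 or HT29 replicate 3. The differences were then 1.06, 0.93 and 0.84, so without SW480 replicate 2 the adjusted p alone missed its limit. CCL2, a monocyte attractant, had 1.96, 2.09 and 4.68 in SW480 and 2.11, 0.810 and 0.292 in HT29 and was not called, at 0.95 ± 0.31 (SE, adjusted p = 0.028, limma). CCL2 was called higher in SW480 without HT29 replicate 1, at 1.29, without SW480 replicate 1 or 2, at 1.11 and 1.08, and under both scalings, at 1.24 and 1.29. CXCL10, an interferon-linked chemokine, had 3.30, 1.89 and 1.64 in HT29 and 0.409, 0.390 and 1.52 in SW480 and was not called either. CXCL10 was called higher in HT29 without division, at -1.03, and without SW480 replicate 3 or HT29 replicate 3, at -1.20 and -1.05.

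Among 14 genes of the TNF superfamily and of cell survival, 5 were higher in HT29 and none in SW480 (limma, with 6 at an adjusted and 9 at an unadjusted p under 0.05), and the median difference was -0.60. The promoter bin of TNFSF15, a ligand of the family, had 4.53, 3.12 and 3.24 in HT29 and 0.350, 0.430 and 0.341 in SW480. BCL2L1, which encodes the survival protein BCL-XL, had 5.16, 2.79 and 2.93 against 0.547, 0.521 and 0.630, and TNFAIP2 had 6.81, 2.68 and 3.99 against 0.701, 0.908 and 1.09. TNFAIP8 and BIRC7 were the others, with differences of -1.52 and -1.11. BIRC7 was no longer called under both scalings, at -0.90 and -0.98. BIRC2, an inhibitor of apoptosis, went the other way, with 3.03, 3.19 and 4.06 in SW480 and 1.41, 1.28 and 1.39 in HT29, a difference of 0.90 ± 0.27 (SE, adjusted p = 0.016, limma) that was under the size limit. BIRC2 was called higher in SW480 without division, at 1.04, and under both scalings, at 1.17 in each. TNFRSF9, a receptor of T-cell costimulation, had 3.18, 2.13 and 3.73 in SW480 and 2.45, 1.13 and 1.46 in HT29 and was not called.

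Among the genes named here, division by the input level turned the sign at 2, both on chromosome 8 and not called. Listed genes that are not named are not covered. At TNFRSF10B, a receptor of TRAIL, the input level was 1.03 in SW480 and 0.43 in HT29, and the difference was -0.55 with division and 0.51 without it. Its divided signal was 9.82, 5.93 and 9.14 in HT29 and 5.68, 5.42 and 4.66 in SW480. At MYC, the growth regulator, a bin 11934 bp upstream of the TSS had a level of 1.44 in SW480 and 3.51 in HT29, and the difference was 0.66 with division and -0.22 without it. Its divided signal was 3.03, 2.81 and 2.36 in SW480 and 1.92, 1.16 and 1.08 in HT29. By the binding limit, however, this bin was bound in HT29 and not in SW480. The same megabase held 605 of the 731 bins that passed the size and p limits in SW480 without being bound there. Its 1326 kept bins had a median input of 2.42 in SW480 and 1.40 in HT29, the opposite order to the levels of the megabase. Bins with an input over 2 had no part in these levels, which left out most of the kept bins here. The level of the megabase is therefore not shown to be the copy number of these bins. With levels per 100 kb, 213 of the 605 still passed, and the difference at the MYC bin was 0.56. With the input of the bin subtracted it was -0.29, so its sign depends on how the input is taken into account.

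Of 15 adhesion, matrix and coagulation genes 2 were higher in HT29 and none in SW480 (limma, with 7 at an adjusted and 8 at an unadjusted p under 0.05), with a median difference of -0.71. ITGAV, the integrin αV chain, had 5.42, 2.79 and 3.16 in HT29 and 0.475, 0.603 and 0.171 in SW480, and LAMB3, a laminin chain, had 5.99, 2.88 and 3.27 against 0.865, 1.61 and 0.873. Without HT29 replicate 1, LAMB3 was no longer called, at -0.96, nor was it under both scalings, at -0.94 in each. ICAM1, an adhesion receptor for leukocytes, had 11.9, 6.51 and 4.76 in HT29 and 2.91, 2.43 and 4.55 in SW480, without overlap, and was just under the size limit at -0.97 ± 0.32 (SE, adjusted p = 0.029, limma). ICAM1 was called higher in HT29 without SW480 replicate 3, HT29 replicate 2 or HT29 replicate 3, at -1.17, -1.04 and -1.23, and with input levels per 100 kb, at -1.01. Its input level was 1.17 in SW480 and 0.75 in HT29, so the division widened the difference. F3 (tissue factor) and SDC4 were not called, with differences of 0.54 and -0.45.

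Of 14 AP-1, immediate early and phosphatase genes 4 were higher in HT29 and none in SW480 (limma, with 4 at an adjusted and 9 at an unadjusted p under 0.05), with a median difference of -0.62. DUSP16, a phosphatase of MAP kinases, had the largest difference, with 13.8, 6.35 and 7.27 in HT29 and 0.397, 0.635 and 1.07 in SW480. JUN, IER2 and IER5 were the others, with differences of -1.19, -1.22 and -1.31. Without HT29 replicate 1, JUN and IER2 were no longer called, at -0.89 and -0.88. Under both scalings JUN (-0.91 and -0.93) and IER2 (-0.93 and -0.94) were not called either. IER2 was also not called without SW480 replicate 1 or without division, where it had -0.76, and IER5 was not called with the libraries scaled to the same median, at -0.99. DUSP16 kept its call in each of these fits. JUNB, a subunit of AP-1, had 23.7, 13.0 and 13.3 in HT29 and 18.0, 17.2 and 21.1 in SW480 and overlapped. EGR1 had -0.73 and was not called.

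Among epithelial and colon identity genes, most HT29 calls were lost without HT29 replicate 1. Of 12 with a bound bin 7 were higher in HT29 and 1 in SW480, against 710 and 80 of all 2798 genes. The median difference of the 12 was -1.04, against -0.64 over all these genes. Of the 12, 9 were bound in HT29 alone, as were 1781 of all 2798 genes. The promoter bin of EHF, an epithelial ETS factor, had 10.3, 5.54 and 5.67 in HT29 and 0.775, 0.624 and 0.669 in SW480, at -2.23 ± 0.29 (SE, adjusted p = 1.4e-05, limma). CEACAM5, the carcinoembryonic antigen gene, had 3.33, 1.59 and 2.01 against 0.151, 0.714 and 0.250. GATA6, KRT8, KRT18, CLDN3 and CLDN4 were the other HT29 calls, with differences of -1.33 to -1.03, and without HT29 replicate 1 each of these 5 was under the size limit, at -0.91 to -0.61. Under both scalings CLDN3, CLDN4, KRT8 and KRT18 were not called, at -0.96 to -0.75, and without division KRT8 and KRT18 were not called, at -0.72 and -0.92. Leaving out an SW480 library also ended the call of CLDN3 (replicate 1), CLDN4 (replicate 2 or 3) and KRT8 (replicate 3). CDX2, a homeobox factor of the intestine, went the other way, with 2.25, 3.13 and 2.95 in SW480 and 0.235, 0.348 and 0.462 in HT29, a difference of 1.48 ± 0.22 (SE, adjusted p = 6.1e-05, limma). ELF3 and CDH1 (E-cadherin) were not called, with -0.55 and -0.93, though CDH1 was called without HT29 replicate 2, at -1.05, and with the input of the bin subtracted, at -1.31. The input level at CDH1 was 2.45 in SW480 and 1.21 in HT29, so the division widened its difference.

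Of 16 mesenchymal and RUNX genes 3 had a bound bin, and none of them was called (limma, with 3 at an adjusted and 3 at an unadjusted p under 0.05). ZEB2 and SNAI2, repressors of epithelial genes, had differences of 0.73 and 0.92, and SNAI1 had -0.72, or -1.02 and a call without division. SNAI2 had 0.954, 1.96 and 3.10 in SW480 and 0.790, 0.552 and 0.257 in HT29, with the lowest SW480 library close to the highest HT29 library. SNAI2 was called higher in SW480 without HT29 replicate 1, at 1.04, without SW480 replicate 1, at 1.20, and under both scalings, at 1.13 and 1.14.

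The line differences were read again in the ERβ cells, whose ChIP libraries had no part in the calls but share the input levels. The same fit on the 3 SW480 ERβ and 3 HT29 ERβ libraries called 1541 of the 44379 bins higher in SW480 (3.47%) and 584 higher in HT29 (1.32%). Of the 206 bins higher in SW480 mock, 202 were called higher in SW480 ERβ, or 98.1%, and none was called the other way. Of the 2198 bins higher in HT29 mock, 545 were called higher in HT29 ERβ, or 24.8%, and 1 was called higher in SW480 ERβ. Without HT29 ERβ replicate 1 in the test, 244 of the 2198 were called higher in HT29 ERβ, and with quantile normalisation 829 were. In both, the binding limit still rested on the unscaled signal of all ERβ libraries. The sign was the same at all 206 and at 1941 of the 2198, and the median difference went from 1.24 to 1.87 at the SW480 bins and from -1.26 to -0.67 at the HT29 bins. The strength of the libraries moved with this. At the bins bound in both lines the median signal was 3.58, 6.93 and 6.0 in the SW480 ERβ libraries and 5.40, 2.67 and 2.52 in those of HT29 ERβ. Replicate 1 was thus far above the other HT29 libraries in ERβ cells too, as in mock cells. The part of library strength in the counts was not tested.

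All 12 named SW480 loci were called in the same direction in ERβ cells, and 10 of the 12 named HT29 loci. Over all loci it was 163 of 166 in SW480 and 342 of 1436 in HT29, and the named ones were picked for the largest differences. At the TNFSF10 locus the signal was 23.7 ± 6.94 in SW480 ERβ and 1.42 ± 0.343 in HT29 ERβ (SD, n = 3 each). At the PTGS2 locus it was 0.418 ± 0.155 in SW480 ERβ and 8.70 ± 4.36 in HT29 ERβ, with a difference of -2.69 (adjusted p = 1.3e-05, limma). LCN2 and IFNAR2 were the 2 that were not called, with 3.27 ± 0.797 against 7.0 ± 3.56 and 5.18 ± 1.78 against 10.2 ± 4.47. Of the listed genes, CDX2 and CX3CL1 were again higher in SW480, and 5 of the 22 were again higher in HT29, near the 24.8% of all HT29 bins. These 5 were CXCL16, ITGAV, DUSP16, EHF and CEACAM5.

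**Figure D5:**
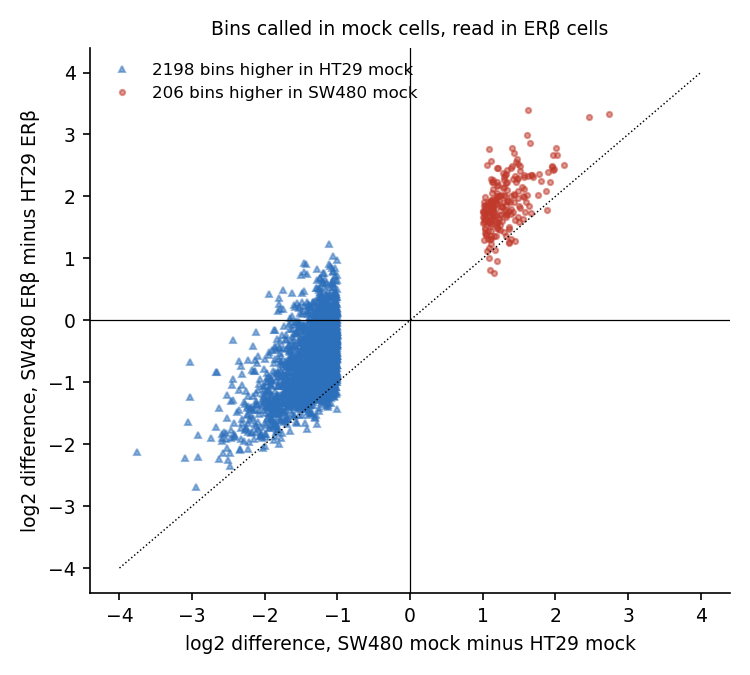
Log2 difference between SW480 ERβ and HT29 ERβ (y axis) against that between SW480 mock and HT29 mock (x axis), for the 206 bins higher in SW480 mock (red circles) and the 2198 bins higher in HT29 mock (blue triangles). The dotted line marks equal differences. All red circles lie above 0 on the y axis, with a median of 1.87, while the blue triangles have a median of -0.67 and some lie above 0.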

How the data were processed

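p65 ChIP-Seq of TNFα-treated SW480 and HT29 cells was analysed from 16 coverage tracks on GRCh38. The authors mapped reads with STAR, keeping unique alignments, and the deposited signal is HOMER tag density, scaled to 1 total of tags and fragments of 100 bp, with 1 track per library and no value under 0.05. Versions are not given in the sources used here, and values are given over stretches of equal signal, which smooths low signal. Libraries of a group are described as replicate experiments.

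Signal was averaged over 200-bp bins. Bins with a mean of at least 1 over the 6 mock libraries were kept. The input level of a line per 1 Mb was the mean of both inputs over bins with an input of no more than 2, divided by its median, and megabases under a level of 0.1 or with too few such bins were left out. Differences of log2(signal / level + 1) were tested with limma 3.58.1 (R 4.3.3, trend, two-sided, Benjamini-Hochberg adjustment over all kept bins), and called at an adjusted p under 0.05, a difference of at least 1 and a mean of at least 4 times the input. Called bins within 400 bp were joined, and the 12 loci per direction with the largest difference were named by the nearest protein-coding TSS of GENCODE. Every listed gene that was called is named, with up to 4 per list that were not. A listed gene and the sequences of some loci are not reported here. Only the limma fit was tested on simulated data, which had independent noise in each bin and no library that stood apart. The members, lists and motifs were chosen with earlier results of these data known. Replicate numbers did not pair libraries across lines. Motifs were searched with Python 3.11.15 and pysam 0.24.0 in bins of GRCh38. No explanation of a difference was tested, and gene expression was not used here.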

Additional observations from a re-analysis of the deposited data

How the results depend on the processing

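Counts of bins are given as SW480 first and HT29 second, where 206 and 2198 were reported. Without copy number division they were 322 and 2253. A pseudocount of 0.5 gave 346 and 3375, and 2 gave 82 and 788. A minimum mean signal of 2 gave 138 and 1107, the same median over bins bound in both lines 381 and 1153, quantile normalisation 391 and 1332, subtraction of the input of the bin 115 and 757, bins of 400 bp 77 and 955, array weights 244 and 1391, and 8 times the input 95 and 816. Leaving out 1 library gave 189 to 270 and 1107 to 3012, the lowest HT29 count without HT29 replicate 1 and the highest without HT29 replicate 2. Fits without 1 library and both scalings left the kept bins and the binding limit as reported. The mean difference over bound bins was -0.80 to -0.37 under the alternatives run and -0.77 to -0.40 without 1 library, a range whose sign the choice of bins can set. The number of bins called in mock cells and in the same direction in ERβ cells was 747 as reported. It was 446 to 909 when 1 library was left out, with 446 without HT29 ERβ replicate 1. The number of them higher in HT29 was 545 as reported, 829 with quantile normalisation, and 244 to 709 when 1 library was left out.

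The replicate block left both counts at 206 and 2198. In this balanced design a block cannot change a difference, and the size and binding limits set the counts, so this says little. The replicate numbers do not pair the lines, since the deviations of same-numbered libraries correlated at -0.15, -0.07 and -0.05. Over the 24 loci, which were picked for the largest differences, 527 of 528 values under the alternatives kept direction and call, and 1 lost its call. Of 975 such values of the listed genes named, 819 kept direction and call, 101 lost the call, 41 gained it and 14 changed sign. TNIP1 changed sign to 0.30 with the same median, 0.033 with quantile normalisation and 0.14 with array weights, and lay between -0.21 and 0.13 without 1 library. NFKB1 changed sign to 0.28, 0.038 and 0.052 under these 3 settings and to 0.0094 with the mock input alone, and lay between -0.38 and 0.19 without 1 library. Without copy number division TNFRSF10B had 0.51 and MYC -0.22, and with the input of the bin subtracted MYC had -0.29. The cause of these changes was not tested. The tracks hold no counts, so the precision of a single bin is known only from 3 libraries a line.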
